A study of Homo sapiens with 20 samples.

Results

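Mitochondrial ribosomal protein genes were followed here as 1 gene family across the 20 libraries of the series. They were taken as all rows whose symbol is MRPL or MRPS, then a number, then at most 1 of the letters A, B and C, which gave 78 of the 60656 rows of the count table. RNA was sequenced from SW1990, a human cell line established from pancreatic cancer, in a mouse model of that disease. There were 4 treatments with 5 samples each, all named after principles of traditional Chinese medicine: heat-clearing (also against dampness), spleen-strengthening (also for the regulation of qi), yin-nourishing (also for the elimination of heat) and blood-activating (also against stasis). The sources used here give no herbs, doses, durations, or place of the cells in the mouse, and no sample is labelled untreated, so every value sets one treatment against another. The labels do not say whether the 5 samples of a treatment were separate mice, tumours or cultures, so the p-values reflect the spread between these samples alone, which may be technical.

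The mitochondrial ribosome translates the few mRNAs of the mitochondrial genome, all of which encode subunits of the respiratory chain or of ATP synthase. Its rRNAs come from the mitochondrial genome, whereas all its proteins are made from nuclear genes, translated in the cytosol and imported. Some of these proteins have counterparts in bacterial ribosomes and others are found only in mitochondria, and a working ribosome joins a large and a small subunit. The names follow the subunit with exceptions: the products of MRPS18A and MRPS30 sit in the large subunit, and the product of MRPS36 is a component of the alpha-ketoglutarate dehydrogenase complex and not of the ribosome. By role the family held 30 conserved and 21 mitochondria-specific large-subunit genes, 16 conserved and 10 mitochondria-specific small-subunit genes, and MRPS36.

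Library depth was 81.7 to 135.0 M counts (M, mega). In 5 libraries, heat-clearing 01 and 02 and blood-activating 01, 08 and 09, the nuclear RNA RN7SK took 5.25 to 7.38% of all counts, against 1.57 to 3.02% in the other 15. They are called RN7SK-high libraries below, and they occur in only these 2 treatments. All 7 epithelial markers were present in every library and summed to 1886 to 3057 CPM (counts per M counts, TMM-normalised), with 2643 to 3057 CPM in the RN7SK-high libraries and 1886 to 2577 CPM in the others. Fibroblast markers summed to 27.4 to 74.8 CPM, endothelial to 8.28 to 24.1 CPM, immune to 51.2 to 86.8 CPM and red blood cell markers to at most 1.5 CPM. Acinar markers summed to 0.968 to 1054 CPM and were most uneven, with spleen-strengthening libraries at 0.968 to 74.6 CPM and the highest sum in a yin-nourishing library; 13 of the 15 acinar genes were at 0 in at least 3 libraries. The part of these markers in the values below was not tested. The counts were made on the human build hg38, and whether mouse RNA was counted in any of these rows was not tested. In bulk RNA of this kind, fewer cells of a type and less RNA per cell cannot be told apart.

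All 78 genes passed the filter on low counts, and 71 of them stood at 1 CPM or more in every library. The median of their mean levels was 15.5 CPM. On a scale that also divides by transcript length, CPM per kilobase, MRPS6 had the highest mean level of the family at 87.6 ± 18.4 (SD, n = 20), followed by MRPL3 at 67.2 ± 16.0 and MRPS18A at 61.5 ± 13.4. MRPS6 and MRPL3 both have bacterial counterparts, MRPS6 on the platform of the small subunit and MRPL3 in the core of the large one. MRPL3 and MRPS18A differ by less than their SDs, and the gap from MRPS6 to MRPL3 is only slightly wider than those SDs. The lowest mean levels per kilobase were 1.17 ± 0.356 for MRPS25, 1.47 ± 0.655 for MRPL23 and 1.71 ± 0.817 for MRPL54. The family thus spanned a wide range of mRNA levels, and each role did as well: the median level per kilobase was 10.6 for the conserved large-subunit genes, 9.43 for the mitochondria-specific ones, 10.7 for the conserved small-subunit genes and 4.96 for the mitochondria-specific ones. Some of these levels depend on how reads were shared with other genes: MRPS6 shares 273 annotated exon bases on its strand with SLC5A3, a sodium-coupled transporter gene. MRPS25 shares 1197 bases on the opposite strand with NR2C2.

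The steadiest genes across the 20 libraries were MRPL57, MRPL35 and MRPS16, with coefficients of variation (SD over mean) of 10.02%, 10.6% and 10.8%. MRPS16, a small-subunit protein with a bacterial counterpart, stood at 29.2 ± 2.55, 26.7 ± 2.22, 30.7 ± 2.11 and 28.8 ± 4.47 CPM (SD, n = 5) in the heat-clearing, spleen-strengthening, yin-nourishing and blood-activating samples. MRPL40, MRPL33 and MRPL36 varied most, with coefficients of 73.6%, 63.5% and 52.0%. The median coefficient of the 78 genes was 23.4% over all 20 libraries and 16.7% over the 15 libraries that were not RN7SK-high, and 55 of the 78 coefficients were smaller in those 15. The map of all genes by library shows where this variation lies.

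**Figure D1:**
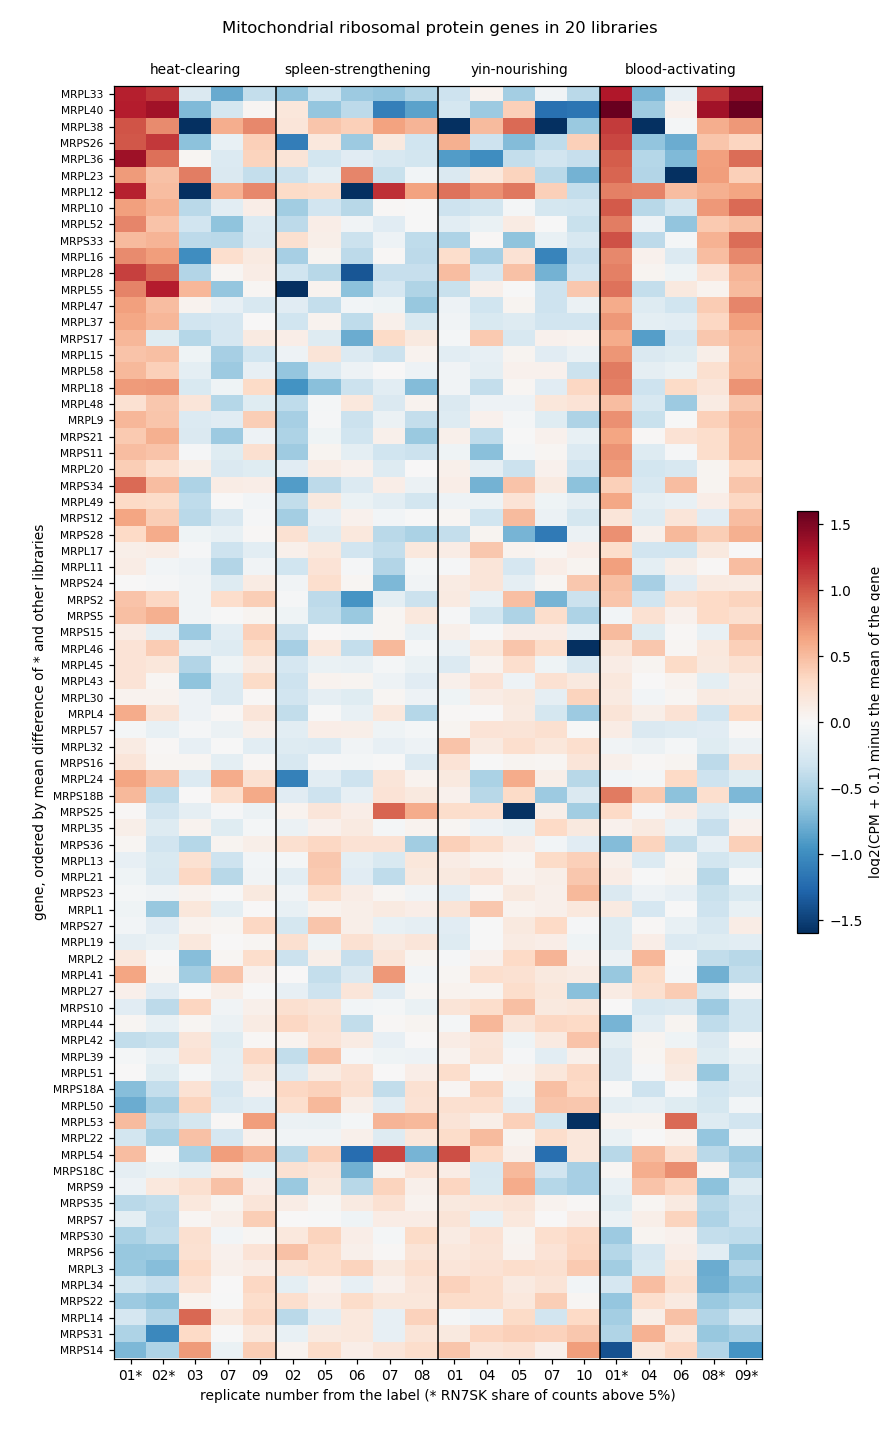
Each row is 1 of the 78 genes and each column 1 of the 20 libraries, grouped by treatment, with an asterisk on the 5 RN7SK-high libraries. Colour gives log2(CPM + 0.1) minus the mean of the gene over all libraries, and it saturates beyond the ends of the scale. Rows are ordered by the mean difference between RN7SK-high and other libraries, so MRPL33 and MRPL40 are at the top, red in the asterisked columns, and MRPS31 and MRPS14 are at the bottom, blue in the same columns.

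Summed over the family, mitochondrial ribosomal protein mRNA was at a similar level in all libraries. The sum was 1679 ± 95.8 CPM (SD, n = 5) in the heat-clearing samples, 1716 ± 73.2 in the spleen-strengthening, 1798 ± 22.5 in the yin-nourishing and 1668 ± 120 in the blood-activating samples, and the single libraries lay between 1513 and 1830 CPM. The yin-nourishing samples had the highest mean and the smallest spread, but their range of 1759 to 1814 CPM lies inside that of the spleen-strengthening samples, 1647 to 1830 CPM. The balance of the subunits was less even. The ratio of summed large-subunit to summed small-subunit mRNA was 2.23 to 2.42 in the 5 RN7SK-high libraries and 1.92 to 2.20 in the other 15, without overlap. With MRPS6 left out of the small subunit the ratios were 2.64 to 2.72 and 2.29 to 2.68, which overlap, so the gap between the 2 sets of libraries rests in part on this 1 gene. Taken over treatments, the ratio was 2.14 ± 0.207 (SD, n = 5), 2.10 ± 0.121, 2.09 ± 0.0885 and 2.20 ± 0.200 in the same order, differences within the spread of the samples.

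**Figure D2:**
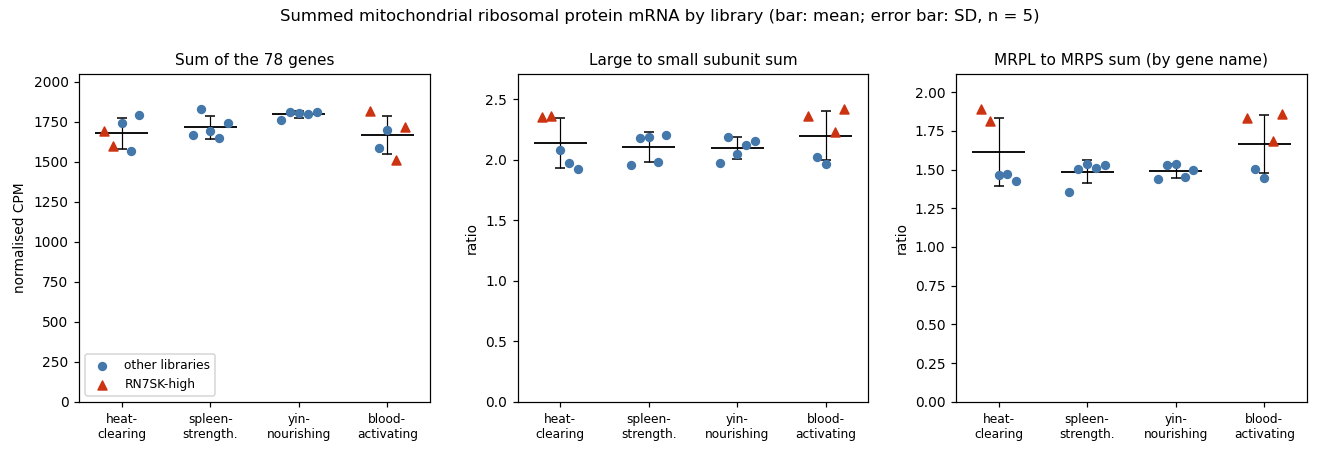
Points are the 5 libraries of each treatment, red triangles the RN7SK-high ones, with a bar at the mean and an error bar of 1 SD. The left panel is the summed CPM of the 78 genes, the middle panel the ratio of large-subunit to small-subunit sums with genes placed by structure, and the right panel the ratio with genes placed by name, MRPL over MRPS. All triangles lie at or above 2.23 in the middle panel and 1.68 in the right one, and all circles at or below 2.20 and 1.53.

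No mitochondrial ribosomal protein gene passed the test in any of the 7 comparisons (edgeR quasi-likelihood F-test, Benjamini-Hochberg adjusted p under 0.05 over all 24790 rows tested). In the test over all 4 treatments 0 of 78 genes passed, as did 0% of all rows. At an unadjusted p under 0.05 there were 24 of 78 genes, 30.8%, against 15.4% of all rows. Without the RN7SK-high libraries 3 of 78 genes were at this level, 3.85%, against 4.46% of all rows. The smallest adjusted p of the family in this test was 0.172, shared by MRPL18, MRPL32, MRPL40 and MRPL3. With other tools on the same counts, DESeq2 called 5 of the 78 genes, MRPL3, MRPL18, MRPL32, MRPL33 and MRPL40, against 3.5% of all rows, and limma voom called 13, against 8.47%.

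Between heat-clearing and spleen-strengthening samples 0 of 78 genes passed, against 0.00807% of all rows. At an unadjusted p under 0.05, 13 genes were higher in the heat-clearing samples, against 8.44% of all rows, and 2 were lower, against 3.03%. The median log2 fold change of all 78 genes was 0.11, beside 0.02 over all rows tested. There were 3 genes in all at this level without the RN7SK-high libraries, against 4.45% of all rows. The median of all 78 genes was then 0.01. Heat-clearing against yin-nourishing gave 0 passing genes (0% of all rows). At an unadjusted p under 0.05, 4 were higher and 9 lower (7.07% and 3.2% of all rows). The median of all 78 genes was 0.02, beside 0.05 over all rows tested. Leaving out the RN7SK-high libraries again gave 3 genes, against 4.36% of all rows. The median of all 78 genes was then -0.08, below 0. Heat-clearing against blood-activating, the 2 treatments that both hold RN7SK-high libraries, gave 0 passing genes (0% of all rows) and 1 gene, MRPL11, at an unadjusted p under 0.05 (1.86% of all rows), with a log2 fold change of -0.35 ± 0.16 (SE) and an adjusted p of 1 by edgeR. In these 3 comparisons DESeq2 called 0 members, against 0.258%, 0.117% and 0.0403% of all rows, and limma voom called 0, against 0.0121%, 0% and 0%.

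Spleen-strengthening against blood-activating gave 0 passing genes (0% of all rows), but it held the smallest adjusted p of the family, 0.0835 for MRPL18. At an unadjusted p under 0.05, 9 genes were higher in the spleen-strengthening samples (8.28% of all rows) and 19 were lower (12.2%). Without the RN7SK-high libraries 5 genes were at this level, against 6.57% of all rows. Yin-nourishing against blood-activating likewise gave 0 passing genes (0% of all rows), with 18 genes higher in the yin-nourishing samples (7.74%) and 12 lower (10.5%) at an unadjusted p under 0.05. Without the RN7SK-high libraries there were 11 genes, against 5.99% of all rows. In these last 2 comparisons limma voom called 25 and 24 genes, against 19.8% and 16.8% of all rows, and DESeq2 called 5 and 6, against 5.71% and 2.29%, where edgeR called 0.

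Spleen-strengthening against yin-nourishing is the pair in which no library is RN7SK-high. Again 0 of 78 genes passed (0% of all rows), DESeq2 called 1, against 0.121% of all rows, limma voom called 0, against 0.00403%, and 4 were at an unadjusted p under 0.05, against 4.72% of all rows. The values leaned to one side: 60 of the 78 fold changes were below 0, that is lower in the spleen-strengthening samples, and 18 were above 0, or 23.1% against 50.3% of all rows. The shift was small, a median log2 fold change of -0.09 beside 0.00 over all rows tested, and the genes share their libraries, so these counts carry no test of their own.

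MRPL32 was highest in the yin-nourishing libraries. It encodes a conserved large-subunit protein whose import sequence is removed by a protease of the mitochondrial inner membrane, a step known to precede ribosome assembly, and it lies at chromosome 7, 42932200 to 42948958, plus strand (hg38). The yin-nourishing libraries had 25.2, 20.3, 22.1, 20.8 and 22.2 CPM. The heat-clearing libraries had 20.2, 18.6, 16.8, 18.3 and 16.3 CPM, the spleen-strengthening 15.9, 15.8, 17.7, 16.7 and 17.4 CPM, and the blood-activating 17.7, 17.3, 18.1, 16.1 and 17.2 CPM. Every yin-nourishing library was therefore above every other library, by a narrow margin over the highest heat-clearing one. The log2 fold change of spleen-strengthening against yin-nourishing samples was -0.40 ± 0.10 (SE), with an adjusted p of 0.889 by edgeR, 0.00693 by DESeq2 and 0.429 by limma voom. Without the RN7SK-high libraries it was -0.40 as well, with an adjusted p of 0.728 by edgeR. Yin-nourishing against blood-activating gave 0.36 ± 0.10, with adjusted p of 0.141 by edgeR, 0.0141 by DESeq2 and 0.0114 by limma voom. MRPL32 shares 24 exon bases on the opposite strand with PSMA2.

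MRPL18 encodes a large-subunit protein of the central protuberance, at chromosome 6, 159789812 to 159798436, plus strand. Its values were 12.5, 12.6, 6.58, 7.39 and 9.67 CPM in the heat-clearing libraries, 3.97, 4.86, 6.13, 6.93 and 4.77 in the spleen-strengthening, 7.51, 5.97, 7.99, 6.85 and 9.80 in the yin-nourishing, and 13.7, 6.19, 9.66, 8.92 and 12.9 in the blood-activating ones. The spleen-strengthening libraries were the lowest group, and they overlapped each of the others. The log2 fold change of spleen-strengthening against blood-activating samples was -0.95 ± 0.23 (SE) with an adjusted p of 0.0835 by edgeR and 0.00983 by DESeq2, and -0.56 with an adjusted p of 0.751 by edgeR without the RN7SK-high libraries. Leaving out 1 library, heat-clearing 03, brought the adjusted p to 0.0451, and leaving out blood-activating 04 to 0.0202. In that last fit 12 of the 78 genes passed, against 7.81% of all rows. Blood-activating 04 is not RN7SK-high, so leaving it out raises the share of RN7SK-high libraries in its group.

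MRPL33 and MRPL36, small conserved proteins of the large subunit, and MRPL40, a mitochondria-specific protein of its central protuberance, separated the RN7SK-high libraries from the others. Such libraries occur in only 2 treatments, so this split and those treatments cannot be told apart when groups are compared whole. MRPL33, at chromosome 2, 27771717 to 27988087, plus strand, had 17.5, 16.3, 6.22, 4.15 and 5.60 CPM in the heat-clearing libraries and 17.9, 4.38, 6.64, 16.2 and 19.6 CPM in the blood-activating ones. The spleen-strengthening libraries had 4.69, 5.83, 4.84, 4.73 and 5.23 CPM and the yin-nourishing ones 5.78, 7.58, 4.98, 7.03 and 5.37 CPM. The 5 values above 16 CPM are the 5 RN7SK-high libraries, and all the others were at or below 7.58 CPM. MRPL40, at chromosome 22, 19431902 to 19436075, plus strand, was at 8.81 to 11.1 CPM in the RN7SK-high libraries and 1.54 to 4.78 CPM in the other 15. MRPL36 was at 5.02 to 8.22 and 1.53 to 4.03 CPM in the same order. Spleen-strengthening against blood-activating samples gave log2 fold changes of -1.35 ± 0.39 (SE) for MRPL33 and -1.56 ± 0.46 for MRPL40. The adjusted p was 0.0933 by edgeR for both, 0.0211 and 0.0246 by DESeq2, and 0.0106 and 0.0100 by limma voom. Heat-clearing against yin-nourishing samples gave 1.19 ± 0.34 for MRPL36, adjusted p = 0.456 by edgeR. MRPL33 shares 324 exon bases on its strand with BABAM2, so reads may have been shared between the 2 genes.

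Among other large-subunit genes, MRPL9 separated the RN7SK-high libraries within each treatment but not over all 20. The blood-activating RN7SK-high ones were at 33.6 to 42.8 CPM and the other 2 of that treatment at 20.1 and 25.7 CPM. In the heat-clearing samples the ranges were 34.9 to 37.3 and 22.0 to 33.7 CPM. Heat-clearing 09, not RN7SK-high, thus stood just above blood-activating 08. MRPL28 was at 8.67 ± 3.90 CPM (SD, n = 5) in the heat-clearing and 4.34 ± 1.11 CPM in the spleen-strengthening samples. The log2 fold change was 0.997 ± 0.30 (SE), with an adjusted p of 0.323 by edgeR. MRPL28 shares 223 exon bases on its strand with TMEM8A. Its heat-clearing libraries were at 12.004 to 13.6 CPM where RN7SK-high and 4.52 to 6.85 CPM otherwise. The spleen-strengthening ones were at 2.38 to 5.02 CPM. In the blood-activating samples the ranges were 7.35 to 11.1 CPM where RN7SK-high and 5.98 to 6.5004 CPM otherwise. MRPL3, at chromosome 3, 131462212 to 131502983, minus strand, ran the other way, with 73.4, 69.1, 138, 117 and 120 CPM in the heat-clearing libraries and 75.5, 93.3, 126, 64.2 and 80.2 CPM in the blood-activating ones. Its spleen-strengthening and yin-nourishing libraries lay between 123 and 148 CPM. The low values of MRPL3 are again those of the RN7SK-high libraries, all at or below 80.2 CPM. The log2 fold change of spleen-strengthening against blood-activating samples was 0.59 ± 0.17 (SE). The adjusted p was 0.0933 by edgeR, 0.0332 by DESeq2 and 0.00553 by limma voom. MRPL19 had a small difference in the same comparison, 101 ± 8.83 against 82.4 ± 8.07 CPM (SD, n = 5). This is 0.29 ± 0.10 (SE) on the log2 scale, with an adjusted p of 0.107 by edgeR and 0.0133 by limma voom. MRPL44, which carries an RNase III-like fold, was at 19.9 ± 2.79 CPM in the yin-nourishing and 13.3 ± 2.62 CPM in the blood-activating samples. This is 0.58 ± 0.16 (SE) on the log2 scale. The adjusted p was 0.141 by edgeR, 0.0298 by DESeq2 and 0.0115 by limma voom. MRPL50 was lower in the heat-clearing samples, 27.1 ± 8.56 CPM against 37.9 ± 5.78 CPM in the yin-nourishing ones, adjusted p = 0.456 by edgeR. Its heat-clearing libraries were at 18.1 to 21.6 CPM where RN7SK-high and 27.2 to 40.6 CPM otherwise. The yin-nourishing ones were at 28.6 to 42.9 CPM.

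In the small subunit, MRPS10, a conserved protein of the subunit head at chromosome 6, 42206801 to 42217865, minus strand, had 54.8, 58.1, 66.4, 53.3 and 53.8 CPM in the yin-nourishing libraries and 48.0, 39.8, 40.4, 31.8 and 38.9 CPM in the blood-activating ones. These 2 groups did not overlap, and the log2 fold change was 0.53 ± 0.13 (SE). The adjusted p was 0.141 by edgeR, 0.0272 by DESeq2 and 0.00798 by limma voom. MRPS28, the relative of bacterial ribosomal protein S1, went the opposite way in the same comparison, at 1.83 to 4.25 CPM in the yin-nourishing and 4.39 to 6.91 CPM in the blood-activating libraries. Its log2 fold change was -0.90 ± 0.24 (SE), with an adjusted p of 0.141 by edgeR, 0.0291 by DESeq2 and 0.0096 by limma voom. MRPS28 shares 650 exon bases on its strand with AC036214.3, and with the counts of that gene added the log2 fold change was -0.85, but the groups overlapped, since yin-nourishing 04 stood at 4.69 CPM and blood-activating 04 at 4.39 CPM. MRPS6 was at 97.5 ± 6.90 CPM (SD, n = 5) in the yin-nourishing and 70.8 ± 13.6 CPM in the blood-activating samples. The adjusted p was 0.151 by edgeR and 0.0137 by limma voom. Its blood-activating libraries were at 55.8 to 75.0 CPM where RN7SK-high and 70.6 to 91.2 CPM otherwise. The yin-nourishing ones were at 88.3 to 107 CPM. MRPS33 had 12.6 ± 4.93 CPM in the blood-activating and 7.28 ± 1.35 CPM in the yin-nourishing samples. The adjusted p was 0.144 by edgeR and 0.0124 by limma voom. Its blood-activating libraries were at 13.1 to 18.1 CPM where RN7SK-high and at 6.63 and 8.65 CPM otherwise. These last 2 values lie inside the yin-nourishing range, 5.63 to 8.97 CPM. MRPS25 had the highest mean in the spleen-strengthening samples, 6.88 ± 1.95 CPM against 4.60 ± 1.998 CPM in the yin-nourishing ones, with an adjusted p of 1.

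**Figure D3:**
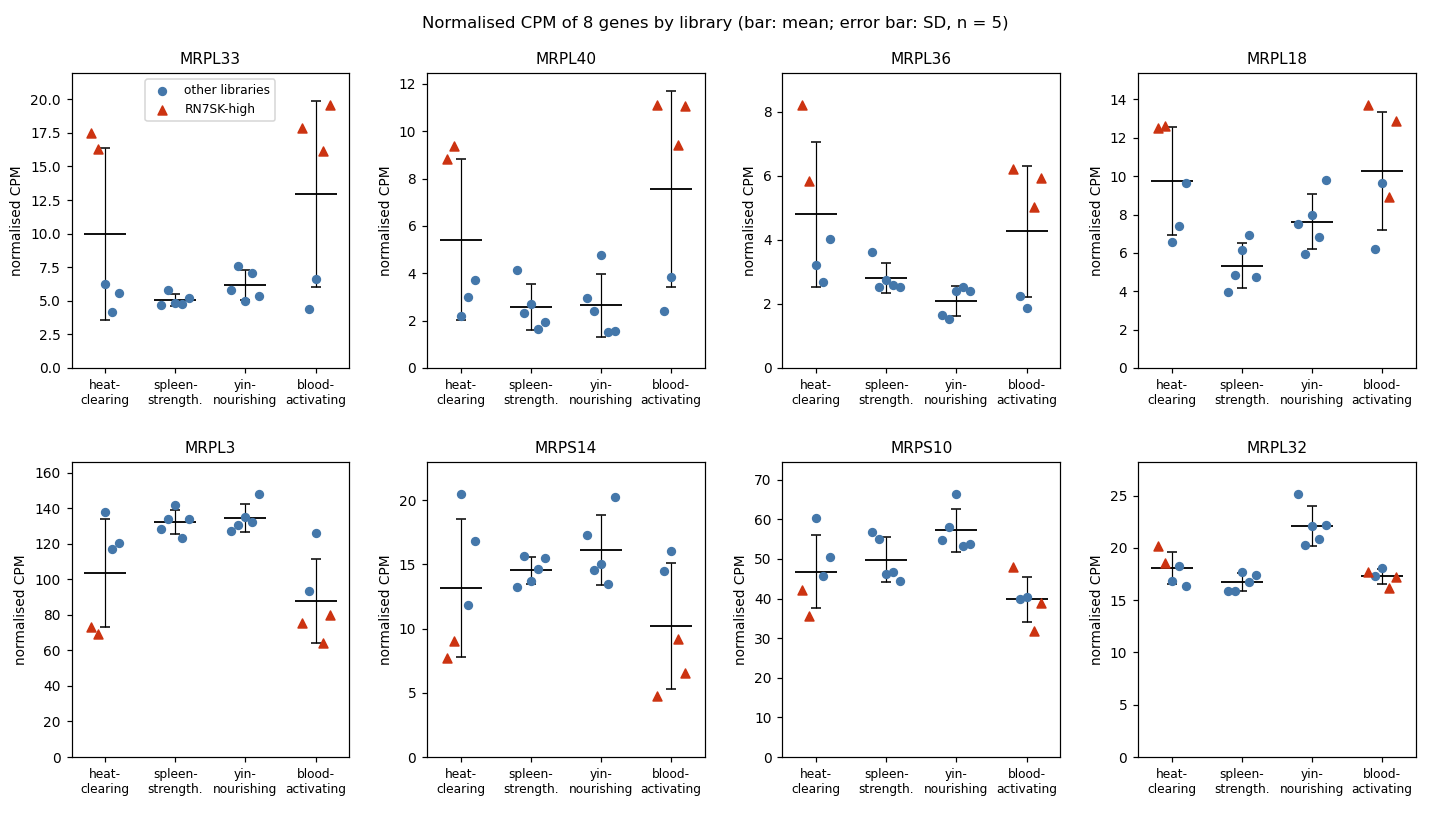
Each panel is 1 gene, with a point for each library in normalised CPM, red triangles for RN7SK-high libraries, a bar at the mean of the 5 libraries of a treatment and an error bar of 1 SD. In MRPL33, MRPL40 and MRPL36 every triangle lies above every circle, in MRPL3 and MRPS14 every triangle lies below every circle, and in MRPL32 the yin-nourishing libraries, 20.3 to 25.2 CPM, lie above all others.

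The 3 relatives of bacterial protein S18 showed no common pattern. MRPS18A, which belongs to the large subunit, was the most abundant of them at 56.8 ± 14.3, 72.6 ± 13.8, 75.4 ± 11.9 and 56.6 ± 6.37 CPM (SD, n = 5) in the heat-clearing, spleen-strengthening, yin-nourishing and blood-activating samples. MRPS18B was at 6.18 ± 1.66, 5.05 ± 0.830, 4.69 ± 1.23 and 5.79 ± 2.62 CPM, and MRPS18C at 8.68 ± 0.746, 9.36 ± 2.32, 8.87 ± 2.73 and 10.8 ± 3.59 CPM. Adjusted p in the 4-treatment test by edgeR was 0.254 for MRPS18A, 0.87 for MRPS18B and 0.893 for MRPS18C. MRPS18C shares 1956 exon bases with ABRAXAS1 on the opposite strand. MRPS36, the gene of the family whose product is not ribosomal, was at 2.95 ± 0.498, 3.50 ± 0.773, 3.48 ± 0.563 and 3.09 ± 1.01 CPM, adjusted p = 0.962.

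Within the 2 treatments that hold both kinds of library, the RN7SK-high libraries split the family in both directions. In 21 of 78 genes all RN7SK-high libraries were above the other libraries of the same treatment in both treatments, against 12.3% of all rows tested, and in 11 genes all were below, against 10%. Together these were 32 genes or 41% of the family, against 22.4% of all rows. Of the 21 higher genes 17 encode large-subunit proteins, 11 of them conserved, and of the 11 lower genes 5 are in the large and 6 in the small subunit. Among these 32 genes the mean log2 differences were largest for MRPL33 at 1.69, MRPL40 at 1.68, MRPS26 at 1.26 and MRPL36 at 1.245. On the other side were MRPS14 at -1.06, MRPS31 at -0.91, MRPL14 at -0.77, MRPS22 at -0.75, MRPL34 at -0.73 and MRPL3 at -0.69. MRPS22, a mitochondria-specific protein of the small subunit, had 27.8 to 30.7 CPM in the RN7SK-high libraries and 43.4 to 57.5 CPM in the other 15. MRPS14, a conserved protein of the subunit head, had 4.78 to 9.16 and 11.8 to 20.5 CPM in the same order. The sign of the difference was the same in both treatments for 67 of the 78 genes, and none had its libraries fully separated in opposite directions. Since 2 of 5 heat-clearing and 3 of 5 blood-activating libraries are RN7SK-high and no others are, this split cannot be told apart from those treatments when groups are compared whole. Within the blood-activating samples it also cannot be told apart from a letter that the labels do not explain, as the titles of the 3 RN7SK-high libraries end in b and those of the other 2 in C. In the heat-clearing samples the letters do not follow the split: of the 2 RN7SK-high libraries, 01 carries b and 02 carries C.

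Transcript GC content, the share of G and C bases, moved with these differences. The higher genes had a median GC content of 50.7% and the lower ones 44.6%, beside 49.6% over the family. Spearman's rho between GC content and the mean difference was 0.36 over the 78 genes and 0.55 over 15197 protein-coding genes tested; genes share their libraries and are not independent points. Several genes ran against this relation: MRPL33 at 42.1% and MRPL47 at 38.03% GC were among the higher genes, and MRPL14 at 55.5% among the lower. Whether GC content has a part in the differences was not tested.

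**Figure D4:**
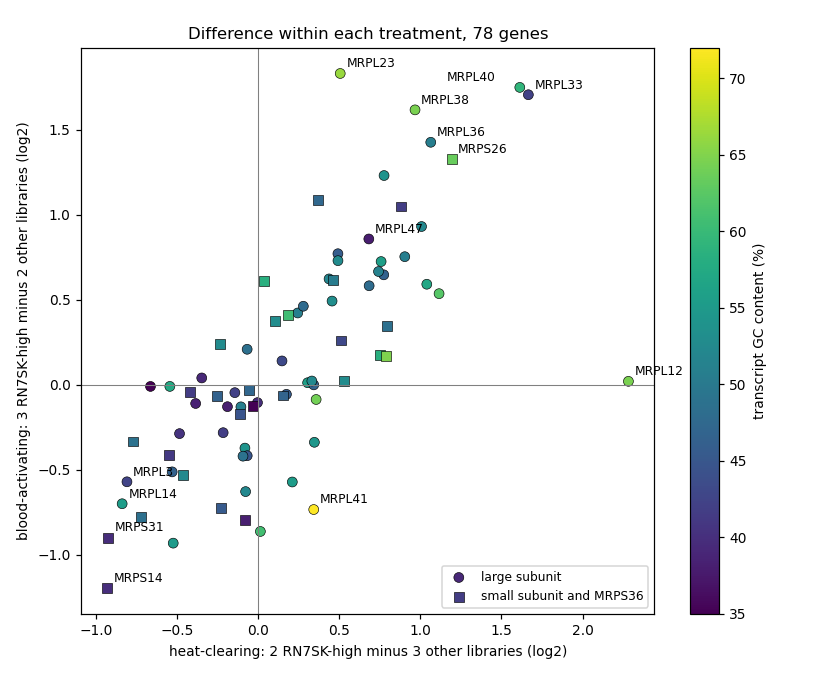
Each point is 1 of the 78 genes, circles for the large subunit and squares for the small subunit and MRPS36. The axes give the mean log2(CPM + 0.1) of RN7SK-high libraries minus that of the other libraries within heat-clearing samples (horizontal) and within blood-activating samples (vertical), and colour gives transcript GC content. MRPL33 and MRPL40 lie at the upper right, and MRPS14 and MRPS31 at the lower left. MRPL12, which was at 0 counts in 1 heat-clearing library, lies apart at the far right.

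Promoters of many nuclear genes for mitochondrial proteins are known as targets of nuclear respiratory factors and of ETS-family and YY1 factors, so 4 motifs were searched on both strands in the 300 bases around each annotated start in RefSeq (GRCh38.p14), for the 69 of 78 genes with an entry. The ETS motif CCGGAAG was in 29 promoters or 42%, against 17.1% of 11846 tested protein-coding genes. The YY1 motif AAGATGGCG was in 13 or 18.8%, against 3.49%. The NRF1 motif, GCGCA, any base and then GCGC, was in 11.6% against 10.2%, and the E-box CACGTG in 8.7% against 9.54%. At least 1 of the 4 motifs was in 45 of the 69 promoters or 65.2%, against 33.8%. The end of the ETS motif and the start of the YY1 motif can share the bases AAG, but 0 of the 69 promoters held the 2 motifs overlapping in this way. Of the genes that were higher in the RN7SK-high libraries 13 of 19 had the ETS motif, of the lower genes 4 of 11, and of the rest 12 of 39. The 11846 tested protein-coding genes were not divided in this way, so whether this division is particular to the family was not tested. A match is a description of the letters and no evidence of binding. The windows below show the match with 20 bases on each side, 5′ to 3′ along the strand of the gene, for genes of both directions; capitals mark the motif, read on the opposite strand in MRPL58 and at the second match in MRPS22. The first 4 genes were higher in the RN7SK-high libraries, at chr1:1407311-1407357 (minus strand), chr3:179604651-179604697 (minus), chr17:75012457-75012503 (plus) and, with the YY1 motif, chr14:22829803-22829851 (plus). The last 3 were lower, at chr3:131502977-131503023 (minus), chr3:139343887-139343933 (plus) and chr13:40771196-40771242 (minus).
MRPL20: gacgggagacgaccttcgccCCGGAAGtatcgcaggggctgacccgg
MRPL47: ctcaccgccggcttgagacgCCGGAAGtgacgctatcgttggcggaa
MRPL58: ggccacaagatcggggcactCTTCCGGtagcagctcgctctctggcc
MRPL52: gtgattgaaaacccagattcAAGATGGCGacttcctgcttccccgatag
MRPL3: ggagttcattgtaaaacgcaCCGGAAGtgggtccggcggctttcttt
MRPS22: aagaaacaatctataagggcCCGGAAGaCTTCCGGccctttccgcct
MRPS31: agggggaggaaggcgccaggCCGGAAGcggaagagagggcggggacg
The windows shown are examples, taken from matches lying wholly before the annotated start. Whether the motif goes with direction was not tested. In these examples the ETS letters lie near the start of higher and of lower genes. Their levels in the RN7SK-high and the other libraries were 19.7 to 30.8 and 15.2 to 20.9 CPM for MRPL20, 18.2 to 23.7 and 8.96 to 14.3 CPM for MRPL47, and 7.42 to 10.95 and 13.9 to 22.4 CPM for MRPS31.

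For 41 of the 78 genes annotated exons overlap another gene, and for 13 the other gene is protein-coding and on the same strand. In some of these cases the count moved between entries from library to library. MRPL12, the conserved protein of the ribosomal stalk, lies at chromosome 17, 81703357 to 81707526, plus strand, and shares 701 exon bases with the clone-named gene AC139530.2. MRPL12 had 0 counts in heat-clearing 03 and spleen-strengthening 06, where AC139530.2 had 792 and 693, and AC139530.2 had 0 counts in the other 18 libraries. Added together the pair was at 3.57 to 11.2 CPM, and no library stood near 0. MRPL38, a mitochondria-specific protein of the central protuberance at chromosome 17, 75898643 to 75905413, minus strand, shares 1373 exon bases with AC087289.3. It ranged from 1.79 to 41.9 CPM alone, with 6.19 CPM in heat-clearing 03, 4.95, 1.79 and 12.7 CPM in yin-nourishing 01, 07 and 10, and 6.27 CPM in blood-activating 04, and the sum of the 2 entries ranged from 22.5 to 41.9 CPM. The coefficient of variation was 49.2% for MRPL38 alone and 18.2% for the sum. Its log2 fold change of spleen-strengthening against yin-nourishing samples was 0.67 ± 0.64 (SE) alone and -0.09 ± 0.15 with the partner added. MRPL46 shares 724 bases with AC013489.1 and behaved differently, since its coefficient was 27.6% alone and 33.5% for the sum. With the clone-named or readthrough partners of 7 members added, the number of genes that passed the test stayed at 0 in each of the 7 comparisons. Other partners on the same strand, such as BABAM2 for MRPL33, CCDC142 for MRPL53 and ZNF514 for MRPS5, were not added.

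**Figure D5:**
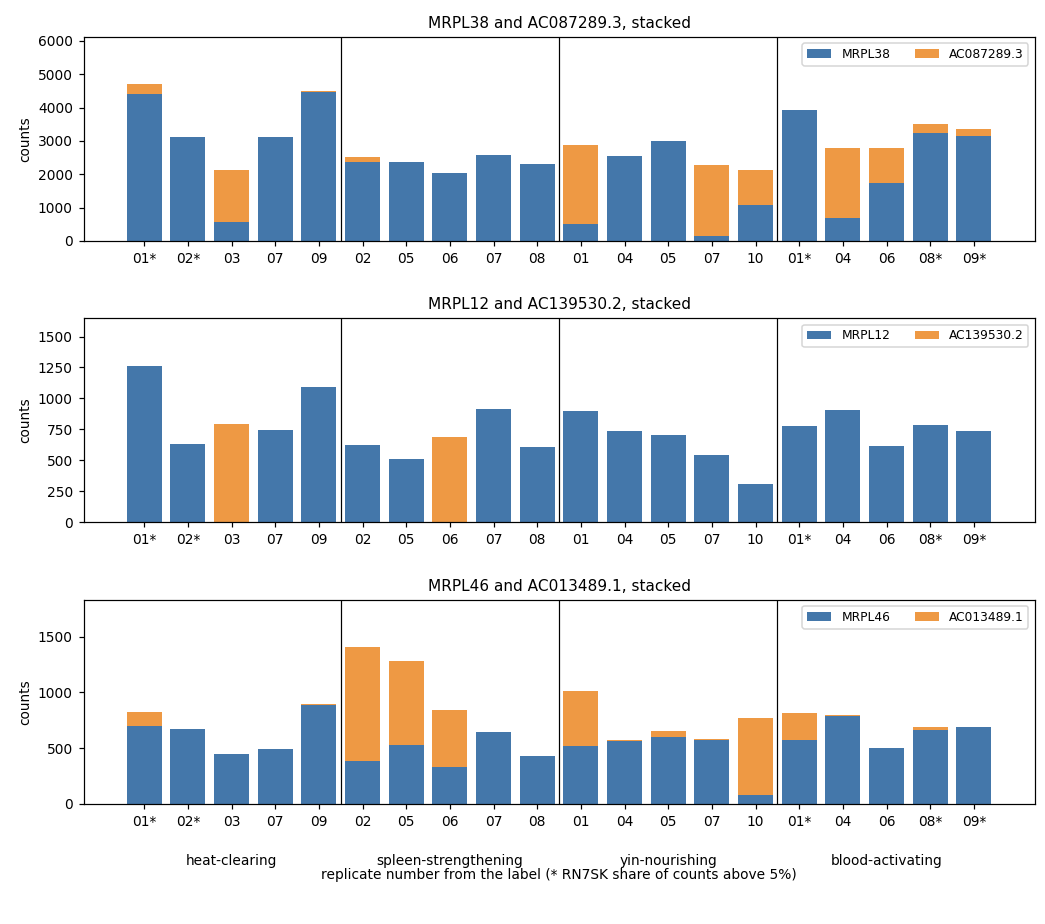
Bars are counts per library, stacked for a family member (blue) and the clone-named gene that shares its exons (orange), with libraries ordered by treatment. In the MRPL12 panel 2 bars are orange alone, 792 and 693 counts, in the MRPL38 panel orange replaces much of the blue in single libraries, and in the MRPL46 panel orange comes on top of the blue in the tallest bars but replaces most of it in yin-nourishing 10.

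Genes that work with the mitochondrial ribosome were counted in lists. Of 5 ribosomal proteins with other names, 25 assembly factors, 14 translation factors, 8 genes of mitochondrial transcription and 10 nuclear regulators, 0 passed the 4-treatment test in each list, as did 0% of all rows. At an unadjusted p under 0.05 there were 3, 6, 3, 2 and 3 genes in the same order, against 15.4% of all rows. The smallest p of each list belonged to AURKAIP1, MTERF3, MTIF3, POLRMT and ESRRA, with adjusted p of 0.172, 0.172, 0.191, 0.172 and 0.172 by edgeR. MTERF3, a factor needed for assembly of the large subunit, stood at 26.2 ± 6.15 CPM (SD, n = 5) in the spleen-strengthening, 26.2 ± 6.40 in the yin-nourishing, 21.1 ± 8.60 in the heat-clearing and 13.9 ± 2.43 in the blood-activating samples. MTIF3, an initiation factor, had its highest mean in the yin-nourishing samples, 40.7 ± 9.95 CPM, and its lowest in the heat-clearing ones, 26.5 ± 6.88 CPM. Separation by RN7SK-high libraries in both treatments was higher and lower for 3 and 0, 9 and 3, 1 and 5, 3 and 0, and 2 and 2 of these genes in the same order, against 12.3% and 10% of all rows. AURKAIP1, a small-subunit protein, was at 8.69 to 12.02 CPM in the RN7SK-high libraries and 1.68 to 4.37 CPM in the others, and POLRMT, the mitochondrial RNA polymerase, at 15.7 to 19.9 and 8.30 to 14.6 CPM. FASTKD2, which takes part in assembly of the large subunit, was lower, at 39.9 to 49.3 against 70.2 to 98.5 CPM. Among the regulators, ESRRA was higher, at 27.4 CPM or more against at most 13.5 CPM, and GABPA, the ETS-family subunit of nuclear respiratory factor 2, was lower at 54.9 to 74.4 against 95.3 to 120 CPM. The templates that the ribosome translates ran lower as well: of the 13 mitochondrial mRNAs 0 were higher and 10 were lower in the RN7SK-high libraries, and together they took 10.6 to 15.6% of counts there against 17.1 to 23.2% in the other 15. Heat-clearing against spleen-strengthening samples gave 9 of the 13 mitochondrial mRNAs lower at an unadjusted p under 0.05, against 3.03% of all rows, and heat-clearing against yin-nourishing samples gave 8, against 3.2%. Spleen-strengthening and yin-nourishing samples each had 5 higher (8.28% and 7.74% of all rows) and 1 lower (12.2% and 10.5%) than blood-activating ones. The remaining 2 pairs had 0 at this level, and 0 passed after adjustment in any comparison. MT-ND3, with the smallest p of these mRNAs in the 4-treatment test (adjusted p = 0.198 by edgeR), was at 360.5 ± 83.8 CPM (SD, n = 5) in the heat-clearing, 295 ± 40.01 in the spleen-strengthening, 292 ± 36.6 in the yin-nourishing and 403 ± 65.1 in the blood-activating samples, so its means were higher where most of the other mRNAs were lower. The mitochondrial rRNAs MT-RNR1 and MT-RNR2 stood at 12.5 to 627 and 50.8 to 918 CPM after rRNA removal.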

How the data were processed

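The authors deposited whole-number counts per gene and library, not normalised; the submitters' processing notes name HISAT2, StringTie and hg38. Versions, gene annotation and strand setting: not given in the sources used here; per the labels' protocols, rRNA was removed from TRIzol RNA and a directional kit was used. Counts were TMM-normalised, and tests used edgeR 4.0.16 under R 4.3.3 (robust quasi-likelihood, all 20 samples in 1 fit, treatment as the factor) after its default filter with a minimum count of 10, which left 24790 rows; p-values were adjusted by Benjamini-Hochberg over these rows at a threshold of 0.05. Alternatives were DESeq2 1.42.0, voom with sample weights from limma 3.58.1, RLE and upper-quartile normalisation, no filter, a strict filter (1 CPM in 5 libraries), the replicate number as a block, the letter in the title, pairs fitted alone, each library left out, the RN7SK-high libraries (share above 5%) left out or given a term and, chosen after MRPL12 was seen at 0, clone-named or readthrough genes that share 300 or more exon bases on the same strand added to the 7 members concerned. The script was tested on simulated data. Library values are TMM-normalised CPM; differences between libraries use log2(CPM + 0.1). Gene positions, exon overlaps, transcript length and GC content come from GENCODE on the build hg38, with 1 transcript per gene.

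Named genes were the 10 members with the smallest p in the 4-treatment test, the 2 smallest in each direction in each pair, the MRPS18 genes, MRPS36, the 3 highest and 3 lowest levels per kilobase, the 3 largest and 3 smallest coefficients of variation, and members with overlapping exons, of which only some are described; the RN7SK-high extremes, those shown with promoters, the gene with the smallest p of each list, and FASTKD2 and GABPA are described as well, of which FASTKD2, GABPA and the extremes were chosen after their values were seen. Members, lists and the RN7SK-high split were chosen with earlier results of these data known.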

Additional observations from a re-analysis of the deposited data

Results flagged for a closer look

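In 112 groups of 5 libraries of the named genes, 8 had a highest or lowest library whose gap to its neighbour exceeded Dixon's 95% critical share of the range, 0.71; chance flags about 1 in 20 groups. MRPL19 was at 96.7 CPM in blood-activating 04, where the other 4 libraries lay at 77.6 to 80.5 CPM. Without this library 12 of 78 members passed between spleen-strengthening and blood-activating samples, against 7.81% of all rows. The library is not RN7SK-high, so its group then holds a larger share of RN7SK-high libraries. Spleen-strengthening 06 held 3 of the 8: MRPL23 at 1.74 CPM against 0.741 to 0.944, MRPL28 at 2.38 CPM against 4.59 to 5.02, and MRPS18C at 5.30 CPM against 9.52 to 10.9. In other spleen-strengthening libraries MRPL36 was at 3.62 CPM in 02 against 2.53 to 2.75, MRPS18A at 48.4 CPM in 07 against 75.7 to 82.7, and MRPS36 at 2.13 CPM in 08 against 3.75 to 4.03. MRPS18C was at 9.997 CPM in heat-clearing 07 against 8.21 to 8.47.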

How the results depend on the processing

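Member counts and medians depended on the tool and on single libraries. DESeq2 called 5 members in the 4-treatment test (3.5% of all rows) and 1 (MRPL32) for spleen-strengthening against yin-nourishing (0.121%). It called 5 for spleen-strengthening against blood-activating (5.71%) and 6 for yin-nourishing against blood-activating (2.29%). EdgeR called 0 in each of these. Limma voom called 13 in the 4-treatment test (8.47% of all rows) and 25 and 24 in the last 2 of these comparisons (19.8% and 16.8%). Leaving out each library in turn gave 0 to 1 called members in the 4-treatment test (MRPL50 without heat-clearing 03). Spleen-strengthening against blood-activating gave 0 to 12. The 12 came without blood-activating 04, against 7.81% of all rows, and MRPL18 passed without heat-clearing 03. Blood-activating 04 is not RN7SK-high, so its group then holds a larger share of RN7SK-high libraries. Yin-nourishing against blood-activating gave 0 to 1, which was MRPL40 without blood-activating 04, or 1.28% of members against 1.41% of all rows. The other 4 comparisons gave 0. The median log2 fold change for spleen-strengthening against blood-activating, -0.15, was -0.0222 without the RN7SK-high libraries, -0.0318 with a term for them and -0.0288 with the replicate block, and -0.18 to -0.06 when libraries were left out. For yin-nourishing against blood-activating, -0.10, it was 0.0538 without the RN7SK-high libraries, 0.0955 with the term, and -0.119 to 0.00958 over left-out libraries (0.00958 without blood-activating 01). Without the RN7SK-high libraries it went from 0.11 to 0.0102 for heat-clearing against spleen-strengthening, and from 0.02 to -0.0775 against yin-nourishing (-0.0768 with the term, and -0.0134 with upper-quartile normalisation). Left-out libraries gave 0.04 to 0.14 for heat-clearing against spleen-strengthening, -0.01 to 0.05 against yin-nourishing, -0.05 to 0.05 against blood-activating and -0.13 to -0.06 for spleen-strengthening against yin-nourishing. The cause was not tested. The 24 fold changes of the members with the 2 smallest p in each direction of each pair kept their sign under all 768 alternative values. Of these values, 22 passed a threshold that edgeR's own value missed. The members were picked for small p in the same data, so a kept sign is a weak check. The fold change of MRPL38, not among them, changed sign when its overlapping gene was added.

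The replicate block called 0 members in each comparison. No pairing of samples by replicate number was seen, although such correlations cannot exclude one. Correlations of deviations between same-numbered libraries were -0.09 to 0.23, with 1 of 12 over 0.1. That 1 joined heat-clearing 01 and blood-activating 01, both RN7SK-high. Of 20 libraries, 2 correlated best with their own number. Depth of 81.7 M counts or more leaves counting error small for most members; MRPL12, MRPL23, MRPL46, MRPL53, MRPL54, MRPL55 and MRPS26 were below 1 CPM in at least 1 library.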
